A study of Mus musculus with 9 samples.

Results

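Itga2b, Itgb3, Gp1ba, Gp1bb, Gp5, Gp6, Gp9, Vwf, Pf4 and Treml1 encode receptors of the platelet surface and proteins that megakaryocytes make and store for platelets. These 10 genes were taken by name, with earlier results of these data known. The array held 13 probes for them among its 55681. For 9 of the 10, some group had a probe well above background on each of its 3 arrays, and these 9 were tested among 13120 genes. Gp6 did not meet that limit and is given by its levels alone.

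RNA was measured in mouse LSK cells, the lineage-negative bone marrow fraction with Sca-1 and Kit that holds stem cells and multipotent progenitors. The cells came from the C57BL/6 strain and were sorted from mice that had received them by transplantation. Cells of the R882H group had been transduced with DNMT3A bearing the R882H substitution, cells of the WT group with wild-type DNMT3A, and cells of the EV group with the vector alone, each with 3 samples. All 3 groups thus share a GFP-labelled vector, transduction and transplantation, and the labels name no change to the cells' own Dnmt3a alleles. DNMT3A is a DNA methyltransferase, and acute myeloid leukaemias often carry a change at its R882 residue. The promoter of the vector, the age of the mice, the time after transplantation and the number of animals behind a sample are not given in the sources used here. Nothing says that samples of a group came from separate animals, so the p-values cover only the spread among these arrays, part of which may be technical.

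Megakaryocytes form platelets by extending processes into the blood, and they load them with adhesion receptors and granule proteins. The integrin αIIbβ3, encoded by Itga2b and Itgb3, binds fibrinogen and joins platelets to each other. The GPIb-IX-V complex, encoded by Gp1ba, Gp1bb, Gp9 and Gp5, binds von Willebrand factor, the product of Vwf, and Gp6 is the collagen receptor. Itga2b, Vwf and Pf4 are also transcribed in haematopoietic stem cells primed for the megakaryocyte lineage, so their RNA in LSK cells is not restricted to mature megakaryocytes.

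The promoter windows of 4 members are shown because these genes differed most between the groups among the members that have a window and were well above background on all 9 arrays. Each window runs from 250 bases before to 50 bases after the start of the gene, 300 bases on the gene's strand, from RefSeq on build GRCm38.p6. Capitals mark GATAA or its reverse complement TTATC, the core read by GATA factors, and GGAAG or its reverse complement CTTCC, a core read by ETS factors. Gp1ba lies at chr11:70638872-70639171 on the plus strand, Gp9 at chr6:87777820-87778119 on the plus strand, Pf4 at chr5:90772185-90772484 on the plus strand and Treml1 at chr17:48359666-48359965 on the plus strand.
Gp1ba: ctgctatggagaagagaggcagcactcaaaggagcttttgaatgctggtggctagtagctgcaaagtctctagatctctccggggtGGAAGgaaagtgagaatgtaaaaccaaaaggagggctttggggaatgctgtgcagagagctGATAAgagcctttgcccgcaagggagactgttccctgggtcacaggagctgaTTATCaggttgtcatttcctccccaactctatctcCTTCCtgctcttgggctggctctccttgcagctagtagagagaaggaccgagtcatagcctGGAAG
Gp9: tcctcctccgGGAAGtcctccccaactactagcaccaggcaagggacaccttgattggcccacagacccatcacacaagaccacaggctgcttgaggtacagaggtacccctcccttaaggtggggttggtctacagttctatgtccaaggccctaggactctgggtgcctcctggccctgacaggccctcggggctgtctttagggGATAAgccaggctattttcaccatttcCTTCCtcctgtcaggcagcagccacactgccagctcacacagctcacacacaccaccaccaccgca
Pf4: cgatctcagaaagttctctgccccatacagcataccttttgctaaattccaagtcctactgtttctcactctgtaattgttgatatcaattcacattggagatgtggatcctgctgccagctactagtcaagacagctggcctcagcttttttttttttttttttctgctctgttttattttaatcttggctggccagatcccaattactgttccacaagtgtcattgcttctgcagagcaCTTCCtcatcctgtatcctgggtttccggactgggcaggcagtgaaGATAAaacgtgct
Treml1: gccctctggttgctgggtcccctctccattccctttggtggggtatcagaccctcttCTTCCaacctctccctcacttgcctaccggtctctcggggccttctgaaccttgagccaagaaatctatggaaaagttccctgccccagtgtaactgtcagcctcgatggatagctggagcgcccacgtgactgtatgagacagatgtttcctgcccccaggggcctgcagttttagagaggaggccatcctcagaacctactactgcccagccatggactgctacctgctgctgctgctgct
In the Gp1ba window a GATA core begins at -103 and at -51 from the start, and in the Gp9 window at -43. Pf4 has one at 38 past the start and an ETS core at -9, while the Treml1 window has an ETS core at -193 and no GATA core.

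Windows were found for 8 of the 10 members. GATAA or TTATC stood in 5 of these 8 windows and in 25.4% of all 32851 windows of this length. GGAAG or CTTCC stood in 8 of 8 and in 71.4% of all windows, and both kinds stood together in 5 of 8 and in 17.2% of all. No copy of one motif overlapped a copy of the other in the member windows. CG dinucleotides, the sites that DNMT3A methylates, numbered 0 to 8 per member window with a median of 3, beside a median of 7 over all windows. Methylation was not measured here, and a match of letters is not a bound site.

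Levels are log2 intensities relative to the array's 75th percentile, so 0 is that percentile itself, and levels of different probes are not compared. The share of probes well above background was 57.6% to 64.8% in R882H, 56.1% to 64.8% in WT and 53.4% to 57.6% in EV. Of 6 LSK markers, 5 were well above background on all 9 arrays, and Slamf1 was so on 3 R882H, 1 WT and 2 EV arrays. Dnmt3a read 1.12 to 1.70 in R882H, 0.49 to 1.84 in WT and 0.56 to 1.48 in EV, so the groups overlapped and this probe does not check the labels. EV replicate 3 at -53.1 and WT replicate 3 at -33.9 stood apart on principal component 1 (29.6% of the variance), where the lowest of the other arrays was at -8.40. The arrays lay on 3 slides, R882H and WT sharing one (2 arrays each), WT replicate 1 and the 3 EV arrays sharing another, and R882H replicate 3 alone on its own. The scanner files and the authors' deposited value table disagreed on sample names. For 7 of the table's 9 columns the values matched the scanner file of a differently named sample, in 4 cases one of another group. Taken in order, the columns matched the scanner files of EV 1 to 3, then R882H 1 to 3, then WT 1 to 3. That order is alphabetical, and the table's own sample names do not follow it. How it arose was not tested, and the files do not settle which naming is right. All groups below follow the scanner files' labels. Under the table's names, R882H minus EV was -0.15 for Treml1, -0.16 for Vwf and -0.31 for Pf4, and 0 members had an unadjusted p under 0.05 in any comparison.

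**Figure D1:**
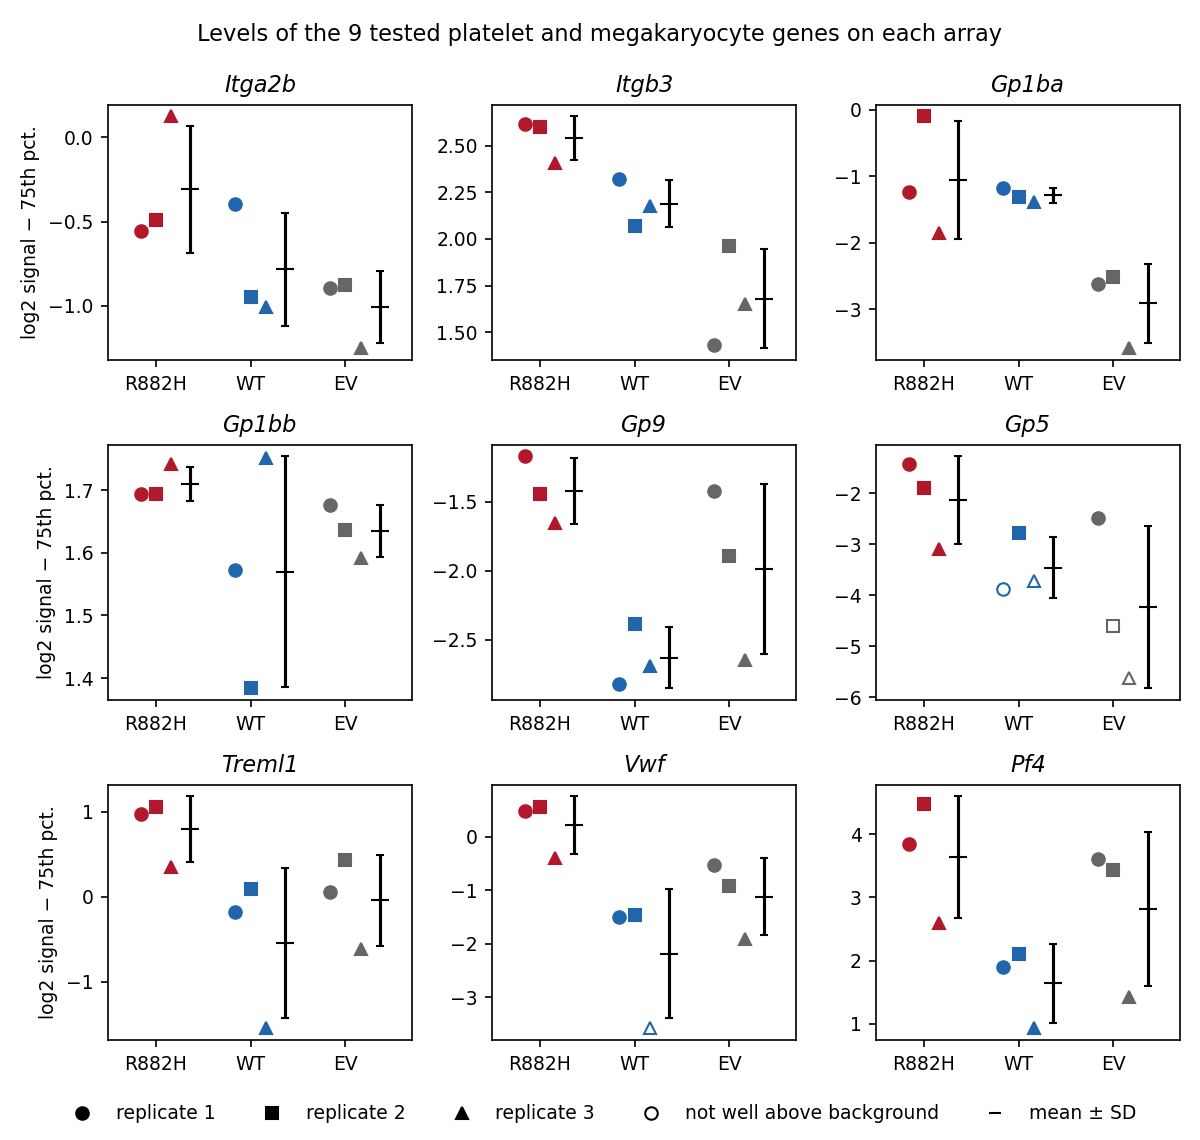
Levels of the 9 tested genes on each array, as log2 signal minus the array's 75th percentile, with the R882H, WT and EV groups from left to right in every panel. Filled symbols are arrays well above background, open symbols are not, and bars are the mean ± SD of 3 arrays. Vwf in R882H lay between -0.40 and 0.57, above every WT and EV array, while Gp1ba in EV lay below every R882H and WT array.

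No member passed the test in any comparison: 0 of the 13120 genes (0%) had a limma adjusted p under 0.05 in R882H against EV, in R882H against WT or in WT against EV. The members' differences are therefore given as values with their errors. At an unadjusted p under 0.05, 1200 genes (9.15%) differed between R882H and EV, 1063 (8.1%) between R882H and WT and 779 (5.94%) between WT and EV. The first of these numbers was 703 without R882H replicate 1 and 668 without R882H replicate 2, the second was 708 without R882H replicate 2, and the last was 1281 without WT replicate 3. Sizes are log2 differences between group means with the SE of the fit. In all of them fewer cells of a type and less RNA per cell cannot be told apart.

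The 2 chains of the fibrinogen receptor were higher in R882H than in EV, by 0.70 ± 0.25 for Itga2b and 0.86 ± 0.17 for Itgb3, without passing the test. Itga2b, the αIIb chain that marks megakaryocytes and their precursors, read -0.56, -0.49 and 0.12 in R882H, -0.40, -0.95 and -1.01 in WT, and -0.90, -0.87 and -1.25 in EV. All R882H arrays lay above all EV arrays, and WT replicate 1 lay among the R882H arrays. The R882H minus EV difference of Itga2b had an unadjusted p of 0.0196 and a limma adjusted p of 0.527. Against WT it was 0.47 ± 0.25 (adjusted p = 0.631), and WT minus EV was 0.22 ± 0.25 (adjusted p = 0.893), both with overlapping groups. Without the replicates numbered 3, the R882H minus EV difference of Itga2b was 0.36 ± 0.23, and with normexp background correction, whose added offset of 50 shrinks the differences of dim probes, it was 0.43 ± 0.16.

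Itgb3, the β3 chain, is the member with the smallest unadjusted p in R882H against EV, 0.000847, rank 32 of 13120 genes, with a limma adjusted p of 0.314. Its brighter probe read 2.62, 2.60 and 2.41 in R882H, 2.32, 2.07 and 2.18 in WT, and 1.43, 1.96 and 1.65 in EV. The 3 groups formed a ladder without overlap: R882H above WT by 0.35 ± 0.17 (adjusted p = 0.623) and WT above EV by 0.51 ± 0.17 (adjusted p = 0.779). A second probe for the same transcript read 2.27, 2.65 and 2.94 in R882H, 1.68, 1.37 and 0.94 in WT, and 1.61, 1.41 and 0.83 in EV. On that probe R882H stood above both, by 1.34 over EV and 1.30 over WT, while WT and EV overlapped with a difference of 0.044. The probes thus differ on where WT lies, and neither difference between R882H and EV overlapped.

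Within the GPIb-IX-V complex the members did not share one pattern. Gp1ba, the chain that binds von Willebrand factor, was lowest in EV, at -2.62, -2.51 and -3.59, against -1.23, -0.10 and -1.85 in R882H. WT arrays read -1.17, -1.31 and -1.38, within the R882H range and above every EV array. R882H minus EV was 1.84 ± 0.43, a 3.59-fold difference (unadjusted p = 0.00228, adjusted p = 0.399), and WT minus EV was 1.62 ± 0.43, 3.07-fold (unadjusted p = 0.00495, adjusted p = 0.758). R882H minus WT was 0.23 ± 0.43 (adjusted p = 0.898), and without R882H replicate 2, the highest of its group, it was -0.25. With normexp, R882H minus EV was 0.88 ± 0.25 and WT minus EV was 0.71 ± 0.25 for Gp1ba.

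Gp9, the small GPIX chain needed to bring the complex to the surface, was lowest in WT. It read -1.17, -1.44 and -1.65 in R882H, -2.82, -2.39 and -2.69 in WT, and -1.42, -1.89 and -2.65 in EV. R882H lay above WT with no overlap by 1.21 ± 0.30, 2.31-fold (unadjusted p = 0.00301, adjusted p = 0.485). EV spanned the gap between them: R882H minus EV was 0.56 ± 0.30 (adjusted p = 0.570) and WT minus EV was -0.65 ± 0.30 (adjusted p = 0.851). Leaving out 1 array at a time gave Gp9 differences of 1.08 to 1.33 for R882H minus WT, 0.23 (without EV replicate 3) to 0.85 (without EV replicate 1) for R882H minus EV, and -0.98 (without EV replicate 3) to -0.36 (without EV replicate 1) for WT minus EV. With normexp, R882H minus WT was 0.55 ± 0.15 and R882H minus EV was 0.22 ± 0.15.

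Gp1bb, the GPIbβ chain, had 3 probes that did not agree. The brightest read 1.69, 1.69 and 1.74 in R882H, 1.57, 1.38 and 1.75 in WT, and 1.68, 1.64 and 1.59 in EV, with R882H minus EV at 0.075 ± 0.14 (adjusted p = 0.859). That difference turned to -0.080 when the array median replaced the 75th percentile, which lowered the median difference of all genes by 0.15. A second Gp1bb probe was well above background on the 3 R882H arrays, at -2.71, -3.03 and -3.25, and on no WT or EV array. Its R882H mean was 1.81-fold above a floor for WT and 1.71-fold above one for EV. The floor is the lowest signal called well above background on each dimmer array, or the probe's own where that is higher. A probe can exceed the floor without being called, as the remaining Gp1bb probe did on EV replicate 2 at -3.28. These folds are therefore not lower bounds. The remaining probe was well above background on 2 of 3 arrays of every group, with overlapping groups and R882H minus EV at -0.17. Gp1bb overlaps Septin5 in the GRCm38.p6 annotation, so signal from the neighbouring gene cannot be told apart from its own.

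Gp5, the chain cleaved by thrombin, was tested only because it was well above background on all 3 R882H arrays. It read -1.43, -1.89 and -3.09 in R882H, -3.88, -2.78 and -3.72 in WT, and -2.49, -4.59 and -5.61 in EV. Only 1 WT array and 1 EV array were well above background, and in both comparisons an array of the dimmer group lay within the R882H range. R882H minus EV was 2.10 ± 0.75 (unadjusted p = 0.0214, adjusted p = 0.527), and R882H minus WT was 1.32 ± 0.75 (adjusted p = 0.660). With normexp these were 0.49 ± 0.17 and 0.47 ± 0.17. Passing through R882H alone, Gp5 was bound to be high there, and its sign is not read as a result.

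Gp6, the collagen receptor, was well above background on 1 R882H array and on no WT or EV array. It read -3.39, -4.73 and -3.53 in R882H, -4.34, -4.50 and -3.91 in WT, and -3.33, -3.66 and -4.77 in EV. The groups overlapped throughout, and a difference in Gp6 was not detectable at this signal.

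Treml1, a receptor kept in α-granule membranes until platelets are activated, was highest in R882H. It read 0.97, 1.06 and 0.35 in R882H, -0.18, 0.09 and -1.55 in WT, and 0.06, 0.44 and -0.62 in EV. Every R882H array lay above every WT array, by 1.34 ± 0.44 or 2.53-fold (unadjusted p = 0.0149, adjusted p = 0.551). EV replicate 2 lay above R882H replicate 3, and R882H minus EV was 0.84 ± 0.44 (adjusted p = 0.570). WT minus EV was -0.51 ± 0.44 (adjusted p = 0.875) and -0.0030 without WT replicate 3. Without that array R882H minus WT was 0.84, and without EV replicate 3 R882H minus EV was 0.55.

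Among the stored products, Vwf, the adhesive protein that tethers platelets to damaged vessels, had R882H above both other groups. It read 0.49, 0.57 and -0.40 in R882H, -1.5, -1.47 and -3.58 in WT, and -0.53, -0.92 and -1.92 in EV. Each R882H array lay above each array of both other groups, and WT replicate 3 was not well above background. R882H minus WT was 2.40 ± 0.60 (unadjusted p = 0.00315, adjusted p = 0.486), and R882H minus EV was 1.34 ± 0.60, 2.53-fold (unadjusted p = 0.0524, adjusted p = 0.553). WT lay below EV by 1.06 on average (difference -1.06 ± 0.60, adjusted p = 0.875) with overlap. The fit with replicate number as a block, a pairing taken from these same arrays and not from labels, gave the same difference. Its error was smaller (-1.06 ± 0.27, unadjusted p = 0.00556, adjusted p = 0.523). WT lay below EV in all 3 same-numbered pairs, the pair numbered 3 resting on the WT array not well above background. Only the pair numbered 1 shared a slide, where WT replicate 1 lay among the EV arrays. R882H minus WT was 1.71 without WT replicate 3 and 1.38 ± 0.28 with normexp, which also gave 0.89 ± 0.28 for R882H minus EV. Without the replicates numbered 3, Vwf differed by 2.01 ± 0.20 between R882H and WT (adjusted p = 0.207) and by 1.25 ± 0.20 between R882H and EV (adjusted p = 0.453).

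Vwf is also a product of endothelial cells, and Cdh5, which defines them, was well above background on no array. The summed level of the 6 endothelial markers was 2.90 to 3.15 in R882H, 2.87 to 3.10 in WT and 2.72 to 2.96 in EV, and 2 of the 6 were well above background on all 9 arrays. Kdr, Tek, Emcn and Tie1 averaged 2.44, -1.93, -2.05 and -1.06 in R882H, 2.27, -2.78, -3.30 and -1.66 in WT, and 2.24, -3.12, -3.67 and -2.18 in EV. Pecam1 ran the other way, at 0.58 in R882H, 1.20 in WT and 0.90 in EV. The low EV mean of Tie1 came from replicate 3, since the EV arrays read -1.01, -0.65 and -4.87. Emcn in EV read -3.06, -2.37 and -5.58, so replicate 3 lowered that mean too. On WT replicate 3, the lowest WT array for both, Tek read -4.38 and Emcn -4.33. Each was well above background on 2 of the 3 WT arrays. The part of these genes in the Vwf values was not tested.

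Pf4, platelet factor 4, a chemokine of the α-granule, read 3.84, 4.48 and 2.59 in R882H, 1.90, 2.10 and 0.92 in WT, and 3.61, 3.43 and 1.42 in EV. R882H lay above WT without overlap, by 2.00 ± 0.66 or 4.0-fold (unadjusted p = 0.0147, adjusted p = 0.551). EV replicates 1 and 2 lay within the R882H range, and R882H minus EV was 0.82 ± 0.66 (adjusted p = 0.670). That difference was 0.12 without EV replicate 3 and 0.65 ± 0.26 without the replicates numbered 3. WT minus EV was -1.18 ± 0.66 (adjusted p = 0.875), with WT replicates 1 and 2 between the EV arrays. With replicate number as a block, a pairing taken from these same arrays and not from labels, it was -1.18 ± 0.26 (unadjusted p = 0.00269, adjusted p = 0.523). R882H minus WT was 1.64 without WT replicate 3 and 2.17 ± 0.26 without all replicates numbered 3.

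**Figure D2:**
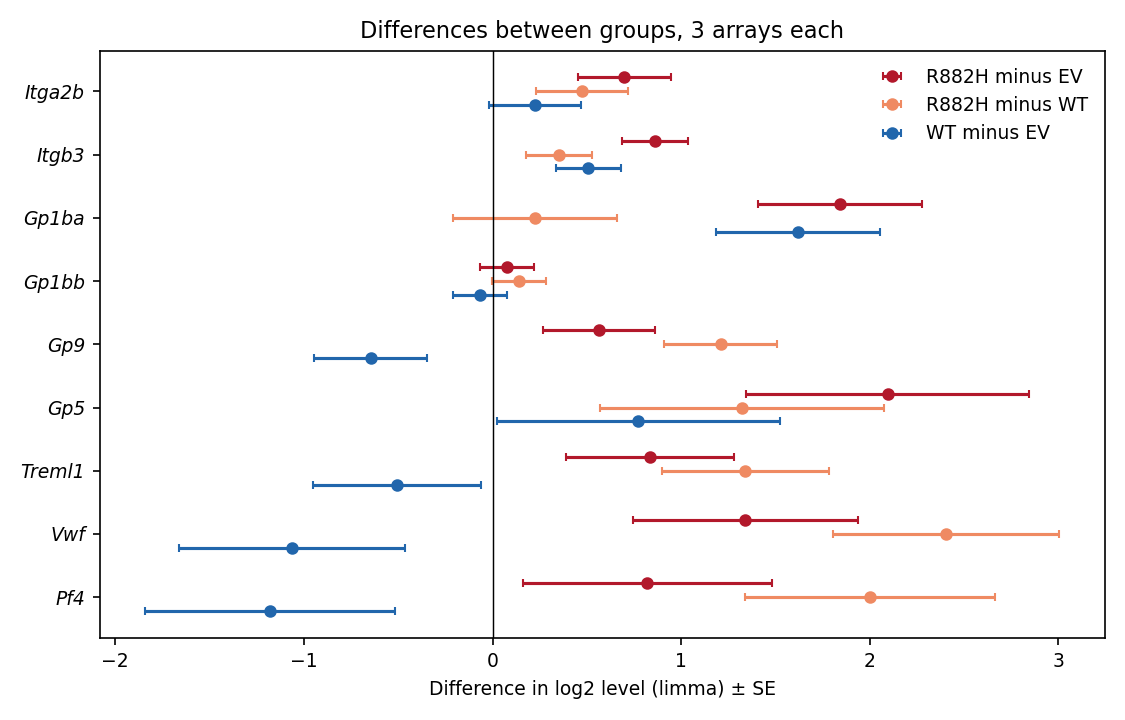
Log2 differences between groups for the 9 tested members, points with the SE of the limma fit on 9 arrays, for R882H minus EV, R882H minus WT and WT minus EV. Gp1ba has both differences from EV well above 0, 1.84 and 1.62, whereas Gp9, Treml1, Vwf and Pf4 have WT minus EV below 0 and R882H minus WT between 1.21 and 2.40.

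The group order differed between members. Itga2b, Itgb3 and Gp1ba ran R882H, WT, EV from high to low, and Gp1bb, Gp9, Treml1, Vwf and Pf4 ran R882H, EV, WT. Neighbours in these orders that did not overlap were R882H and WT as well as WT and EV for Itgb3, WT and EV for Gp1ba, and R882H and EV for Gp1bb and Vwf. The other neighbouring groups overlapped, and Gp5 is left out of this order because only 1 WT array and 1 EV array measured it. The comparisons share groups, so the values of one are not independent of the next.

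In R882H against EV, 4 of 9 members (Itga2b, Itgb3, Gp1ba and Gp5) were higher at an unadjusted p under 0.05, and none was lower. Gp5 entered through R882H and was bound to be high there, so its place in this count is not read as a result. Over all genes 5.37% were higher and 3.77% lower at that p. Groups did not overlap for 5 members (Itga2b, Itgb3, Gp1ba, Gp1bb and Vwf), all with R882H above EV, against 9.12% of all genes in that direction. They did so for 0 members with R882H below EV, against 9.38%. Of the 5, Gp1bb differed by only 0.075, and its probes did not agree. The mean was higher in R882H for 9 of 9 members, Gp5 included, and 46.8% of all genes. The members were chosen with earlier results of these data known, so their counts and medians describe a chosen list and do not test it. Without EV replicate 3, 2 members had such a p. The median difference over the 9 was 0.84, beside -0.027 over all 13120 genes.

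Set against WT, R882H was higher for 4 of 9 members (Gp9, Treml1, Vwf and Pf4) at an unadjusted p under 0.05, against 3.59% of all genes, and lower for none, against 4.51%. Non-overlap with R882H above WT held for 5 members and 6.68% of all genes, and with R882H below WT for 0 members and 8.89% of all. The mean was higher in R882H for 9 of 9 members, Gp5 included, and 47.6% of all genes. The median member difference was 1.21, beside -0.018 over all genes. In WT against EV, 2 of 9 (Itgb3 and Gp1ba) were higher at that p, against 3.4% of all genes, and none was lower, against 2.54%. The same 2 did not overlap, against 5.53% of all genes with WT above EV and 4.5% with WT below it. WT had the higher mean for 4 of 9 members and 51% of all genes, and the median member difference was -0.065 beside 0.0063 over all genes. Without EV replicate 3, 5 members had an unadjusted p under 0.05 in WT against EV, and without WT replicate 1 it was 1. With replicate number as a block, 6 of 9 members and 1067 genes had such a p in WT against EV, and 0 genes were called. That pairing was taken from these same arrays and not from labels. Itgb3 and Gp1ba were the 2 higher members there, and Gp9, Treml1, Vwf and Pf4 were the 4 lower ones, with WT below EV in all 3 same-numbered pairs. WT replicates 2 and 3 lay on another slide than the EV arrays, so slide and group cannot be told apart in those pairs. WT replicate 1, on the EV slide, lay below all EV arrays for Gp9 and among them for Treml1, Vwf and Pf4.

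These counts and medians include Gp5, which entered through R882H, and Vwf, which WT replicate 3 did not measure. Over the 7 members well above background on all 9 arrays, 3 were higher in R882H than in EV and 3 higher in R882H than in WT at an unadjusted p under 0.05. Of the 11663 genes measured on all 9 arrays, 4.07% and 2.92% were higher at that p in these comparisons. The 7 members' median differences were 0.82 for R882H minus EV and 0.47 for R882H minus WT, beside -0.049 and -0.033 over those genes.

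Within a slide, 2 R882H and 2 WT arrays could be compared directly. Of the 7 members well above background on all arrays, Gp1bb overlapped there (0.13) and the others had both R882H arrays above both WT arrays, by 0.45 for Itga2b, 0.49 for Itgb3, 0.68 for Gp1ba, 1.23 for Gp9, 1.74 for Treml1 and 2.65 for Pf4. WT replicate 3 is 1 of the 2 WT arrays, and Treml1 read 0.97 and 1.06 in R882H against 0.09 in WT replicate 2 and -1.55 in WT replicate 3. Vwf read 0.49 and 0.57 in R882H against -1.47 in WT replicate 2, and WT replicate 3 did not measure it. On the slide with WT replicate 1 and the 3 EV arrays, that WT array lay above all EV arrays for Itga2b (0.61), Itgb3 (0.64) and Gp1ba (1.73) and below them for Gp1bb (-0.062) and Gp9 (-0.83). It lay among them for Treml1 (-0.14), Vwf (-0.38) and Pf4 (-0.92). R882H and EV shared no slide, so for them a fit with slide as a block rests on the path through WT. In that fit the members' median R882H minus EV difference was 1.61, with adjusted p of 0.835 to 0.978 for the single members.

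Replicate 3 was the lowest array in all 3 groups for Gp1ba, Treml1, Vwf and Pf4. Averaged over the 7 members well above background on all arrays, after each was centred on its mean, the level was 0.58, 0.82 and 0.23 in R882H, -0.12, -0.15 and -0.55 in WT, and -0.034, 0.016 and -0.79 in EV. Every R882H array was above every WT and EV array in this average. The lowest arrays of WT and EV were the ones that stood apart on principal component 1.

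Markers of other lineages also varied across the arrays. The granulocyte and monocyte markers summed to 8.18 to 8.76 in R882H, 8.52 to 9.30 in WT and 8.47 to 9.56 in EV, with 5 of 6 markers measured and those 5 well above background on all 9 arrays. Singly, Mpo averaged 6.34, 7.26 and 7.24 in R882H, WT and EV, and Elane 2.05, 3.44 and 3.78. In the same order Prtn3 averaged 1.61, 2.41 and 3.02, Ctsg 5.23, 6.49 and 6.56, and Itgam 7.67, 7.64 and 7.78. Elane, a neutrophil protease gene picked out of this list after its values were seen, read 3.18 on R882H replicate 3, 4.96 on WT replicate 3 and 5.37 on EV replicate 3. These were its highest values in each group, on the arrays where Treml1, Vwf and Pf4 were lowest. Mpo, Prtn3 and Ctsg were also highest on replicate 3 of each group, and Itgam was so in R882H and WT but not in EV. Erythroid markers summed to 1.26 to 2.09 in R882H, 0.58 to 0.94 in WT and 0.26 to 2.64 in EV. B-lineage markers summed to 1.26 to 3.15 in R882H, -1.13 to 1.75 in WT and -1.17 to -0.13 in EV, so all R882H arrays lay above all EV arrays. Of these 5 genes 1, Vpreb1, was well above background on all 9 arrays, averaging 1.91 in R882H, -0.51 in WT and -1.13 in EV, and Ms4a1 was so on none. Mast cell and basophil markers summed to 1.73 to 3.07 in R882H, 3.21 to 3.48 in WT and 2.39 to 3.12 in EV, with the R882H sum below WT on every array. Singly, Cpa3, Mcpt8 and Ms4a2 averaged lower in R882H than in WT. Prss34 (-1.93 against -3.29) and Gzmb (-0.66 against -0.94) averaged higher. T-cell markers summed to 2.63 to 2.95 in R882H, 2.50 to 2.68 in WT and 2.37 to 2.66 in EV, and macrophage markers to 4.33 to 4.44, 4.14 to 4.40 and 4.29 to 4.45 in the same groups. The part of these lineages in the members' values was not tested.

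**Figure D3:**
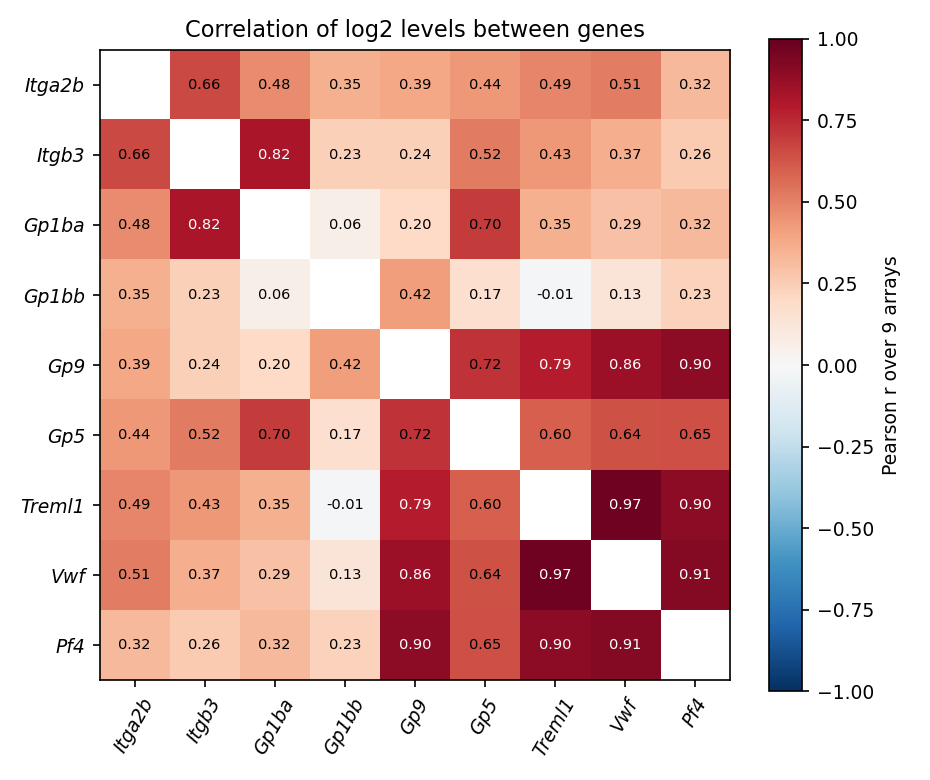
Pearson correlation of log2 levels between the 9 tested members over 9 arrays, each cell 1 pair. Treml1, Vwf, Pf4 and Gp9 form a block with r from 0.79 to 0.97, Itgb3 and Gp1ba pair at 0.82, and Gp1bb lies near 0 with Treml1 at -0.011.

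Of 36 member pairs, 35 had a Pearson r above 0 over the 9 arrays, with a median of 0.43. Treml1 and Vwf were closest at 0.97, followed by Vwf and Pf4 at 0.91 and Treml1 and Pf4 at 0.90. After the group means were removed these were 0.95, 0.83 and 0.82, so for Treml1, Vwf and Pf4 the arrays of a group varied together. This did not hold for all members. Gp9 went from 0.79 to 0.50 with Treml1, from 0.86 to 0.58 with Vwf and from 0.90 to 0.77 with Pf4. Itga2b and Itgb3 went from 0.66 to 0.0064 and Gp1bb and Treml1 from -0.011 to -0.69, while Gp1ba and Pf4 rose from 0.32 to 0.87. For Itgb3 and Gp1ba r was 0.82 over all arrays and 0.33 once group means were removed. The points share their arrays, including the 2 that stood apart, and the correlations are descriptions with n = 9. Pairs with Gp5 or Vwf include arrays where these were not well above background, and no share over other gene pairs was computed.

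Genes whose levels closely followed the 7-member average, of 11656 other genes well above background on all 9 arrays, were Rnf167 (r = 0.97), Dmwd (0.97), Cyren (0.96), Septin8 (0.95), Plgrkt (0.94), Arhgap23 (0.94) and Gm1715 (0.93). Dmwd read 0.71, 0.60 and -0.0041 in R882H, -0.35, -0.32 and -0.72 in WT, and -0.40, -0.0020 and -1.34 in EV. All were ranked on these same 9 arrays.

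Other genes of the megakaryocyte and platelet programme were read from 4 lists of 69 genes, of which 59 were tested and 0 had an adjusted p under 0.05 in any comparison. In R882H against EV, 9 of the 59 were higher and 1 lower at an unadjusted p under 0.05, beside 5.37% and 3.77% of all genes. In R882H against WT the counts were 8 higher and 2 lower, beside 3.59% and 4.51% of all genes, and in WT against EV 0 and 0, beside 3.4% and 2.54%. The median R882H minus EV difference of the 59 was 0.28. These lists too were chosen with earlier results of these data known, so the counts are descriptions.

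Among 15 other receptors tested, 2 were higher and 1 lower in R882H than in EV at that p. P2ry1, an ADP receptor, read 1.76, 2.36 and 1.95 in R882H, 0.56, 1.11 and 0.87 in WT, and 1.84, 1.20 and 1.0 in EV. Its difference was 1.17 ± 0.26 against WT (adjusted p = 0.386) and 0.67 ± 0.26 against EV (adjusted p = 0.527). Clec1b, the podoplanin receptor, had R882H minus EV at 0.62 ± 0.23, and Tbxa2r, the thromboxane receptor, at 0.74 ± 0.34. The EV arrays of Tbxa2r read -0.79, -0.82 and -2.14, the last being replicate 3. Fcer1g, the signalling chain of the Gp6 receptor that myeloid and mast cells also express, ran the other way, at -0.56 ± 0.19 against EV and -0.99 ± 0.19 against WT, with no overlap in either.

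Of 13 other products, 3 were higher and 0 lower at an unadjusted p under 0.05 in R882H against EV. Rab27b, which takes part in the release of platelet dense granules, read 1.38, 1.46 and 1.41 in R882H, 0.26, 0.76 and 0.42 in WT, and 0.36, 0.68 and 0.26 in EV. R882H lay above both groups without overlap, by 0.94 ± 0.18 over WT (adjusted p = 0.341) and 0.98 ± 0.18 over EV (adjusted p = 0.314). Its unadjusted p against EV, 0.000438, ranked 14 among 13120 genes. Gng11, a G protein subunit, differed by 1.61 ± 0.46 from EV, and Mmrn1, the α-granule protein multimerin, by 1.48 ± 0.53 from EV and 1.62 ± 0.53 from WT. In EV, Gng11 read 0.97, 1.16 and -0.58 and Mmrn1 read -1.93, -2.01 and -3.65, both lowest on replicate 3. F13a1, a clotting factor subunit that monocytes also make, had R882H minus EV at -1.92 ± 0.85 with overlap.

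Cytoskeleton and signalling genes differed least of the 4 lists, with 1 of 18 higher and 0 lower at that p in R882H against EV and a median difference of 0.063. The one was Tbxas1, thromboxane synthase, at 0.76 ± 0.30. Of 13 transcription factors, 3 were higher and 0 lower, namely Gata1 (1.15 ± 0.38), Tal1 (0.86 ± 0.29) and Gata2 (0.62 ± 0.24), each with an adjusted p of 0.527. Gata1, which drives megakaryocyte and erythroid genes, read 3.46, 3.26 and 2.90 in R882H, 2.57, 3.04 and 2.29 in WT, and 2.83, 2.14 and 1.22 in EV. R882H lay above EV without overlap and overlapped WT. Zfpm1, its cofactor, had R882H minus EV at 0.75 ± 0.43 with overlap. Its EV arrays read 1.20, 1.46 and -0.42, the last being replicate 3.

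**Figure D4:**
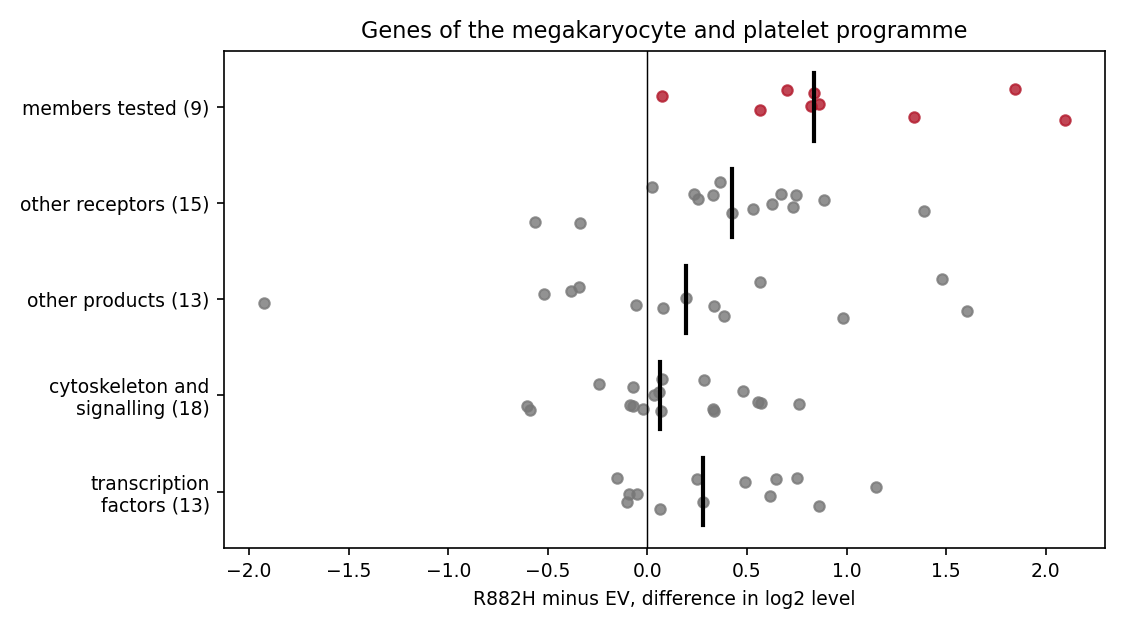
Log2 differences of R882H minus EV for the tested members and for 4 lists of other megakaryocyte and platelet genes, each point 1 gene and each vertical bar the median. The medians are 0.84 for the members, 0.42 for other receptors, 0.19 for other products, 0.063 for cytoskeleton and signalling and 0.28 for transcription factors.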

How the data were processed

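RNA of 9 LSK samples (3 R882H, 3 WT, 3 EV) was hybridised to 1-colour Agilent mouse arrays. Spot signals came from Agilent Feature Extraction 10.10.1.1 (design 028005, build mm9), per the file headers. Each deposited intensity is the processed signal after background subtraction, as the file headers state. A value table that the authors deposited holds log2 values, median-centred by probe. Its columns matched the arrays by value (median absolute difference 8e-04 after a constant), under other names for 7 of 9 columns. Its scale was found in this way, and its making is not described in the sources used here. Column medians were 0 except 1 of -0.0021.

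Spots with outlier flags (154 to 184 per array) were left out. Log2 intensity minus the array's 75th percentile was averaged per probe. Symbols came from RefSeq accessions (27235 probes with 1 symbol, 28446 with none, 0 with several). Each gene kept its brightest probe among those that some group had well above background on each of its 3 arrays. limma 3.58.1 in R 4.3.3 (lmFit, eBayes) was run on all 9 arrays, with Benjamini-Hochberg adjustment over 13120 genes and calls under 0.05. The number of arrays limits the precision: the median SE of R882H minus EV was 0.232. The tests were also run on data simulated from the means and spreads of these arrays, with known changes. The normexp alternative used the median signal and an offset of 50, since no mean signal column was present. Other alternatives changed the scaling, the filter on dim probes, the probe rule, the arrays included, the block and the source of values.

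Named genes were all 10 members with every probe, the 4 of smallest p in R882H against EV from each of 4 lists, and the 8 most like the members' average. Some genes that these rules name are not reported here. Members and lists were chosen with earlier results of these data known. Same-numbered deviations from group means correlated at 0.116, 0.222 and 0.325 between WT and EV, all over the limit of 0.1, so the numbers were treated as pairing WT with EV; this comes from the data, since no label says so. With R882H the lowest correlation was 0.0713 (against WT) and 0.0884 (against EV), under that limit, although the block fit covers the R882H arrays too. Differently numbered arrays were not correlated for comparison.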

Additional observations from a re-analysis of the deposited data

How the results depend on the processing

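None of the 22 alternatives per comparison gave a called gene, by limma at an adjusted p under 0.05, for R882H minus EV, R882H minus WT or WT minus EV, where 1200, 1063 and 779 genes had an unadjusted p under 0.05. Of the 27 pairs of a member and a comparison, 16 kept their sign under all alternatives run, and 11 of 588 settings turned a sign. Scaling by the array median turned Gp1bb in R882H minus EV to -0.080. Leaving out R882H replicate 2 turned Gp1ba in R882H minus WT to -0.25 (-0.25 to 0.62 over the single arrays left out), and leaving out WT replicate 2 turned Gp1bb in WT minus EV to 0.028 (-0.16 to 0.028). Under the column names of the authors' deposited value table, R882H minus EV was -0.15 for Treml1, -0.16 for Vwf and -0.31 for Pf4, R882H minus WT was -0.20 for Treml1 and -0.17 for Vwf, and WT minus EV was -0.20 for Itga2b, 0.043 for Treml1 and 0.017 for Vwf. Those names put 4 columns in another group than the scanner files do, and which naming is right was not settled. The members' median R882H minus EV difference was 0.11 with that table and 1.61 with slide as a block. For R882H minus WT the median was 0.21 with that table, 0.47 with normexp, 0.84 with no filter on dim probes and 0.47 with probes well above background on all 9 arrays, which removes Gp5 and Vwf. Leaving out 1 array at a time gave medians of 0.58 to 1.07 for R882H minus EV, 0.84 (without WT replicate 3) to 1.33 for R882H minus WT and -0.087 to 0.028 for WT minus EV.

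With replicate number as a block, 0 genes were called in any comparison. Genes with an unadjusted p under 0.05 then numbered 1805 for R882H minus EV, 1500 for R882H minus WT and 1067 for WT minus EV, and members 7, 4 and 6 of 9. For the pair of groups that the numbers were taken to pair, WT and EV, the block gave 6 members in place of 2, with 2 higher and 4 lower in WT. In R882H minus EV, genes at that p numbered 668 without R882H replicate 2, 703 without R882H replicate 1, 757 with slide as a block, 1991 with array weights and 614 with the deposited value table. In R882H minus WT they numbered 708 without R882H replicate 2 and 321 with the deposited value table, and in WT minus EV 1281 without WT replicate 3. Members at that p in R882H minus EV numbered 2 without EV replicate 3. In WT minus EV they numbered 1 without WT replicate 1 and with the mean of the detected probes, 5 without EV replicate 3 and 4 without the replicates numbered 3 in all groups. No comparison had a member at that p (0 of 9) under the deposited table's names. The cause was not tested for these changes. Low signal limits Gp5, Gp6, Vwf in WT and 2 probes of Gp1bb.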
